A study of Macrobrachium rosenbergii with 32 samples.

Results

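Short deletions with microhomology at their ends are single losses of 2 to 16 nt, without an insertion, whose gap can slide by at least 2 nt along the reference and leave the same product. They were taken by that rule from the allele tables of the Mr-cofilin site in the giant freshwater prawn Macrobrachium rosenbergii, and they made up 310 of the 9262 alleles listed for the positive controls. These 310 alleles held 3512 of 535772 reads and came down to 14 products, a product being a deletion of 1 length at 1 place, whatever substitutions its reads also carry. The rule used the shape of the allele and the reference sequence and no read count.

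The study nucleofected primary cultures of wild-type embryonic cells in 16 experiments and followed the Mr-cofilin target as its editing control. Each experiment took the eggs of a single female, and the cells came from embryos 10 to 14 days old. Cas9 and the sgRNA against Mr-cofilin went into the 16 positive controls, whereas the 16 negative controls were nucleofected without sgRNA. DNA was extracted after 72 h, amplified around the site and sequenced as paired reads of 150 nt. All cells were thus unsorted cultures of whole broods, 1 library per experiment and group. The p-values below measure the spread between experiments, in which brood, culture and library preparation cannot be told apart.

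When Cas9 cuts both strands, cells can join the ends directly, or they can first trim them and pair short stretches that occur on both sides of the break. The second route, microhomology-mediated end joining, removes the bases between the paired stretches together with 1 copy of the repeat. A deletion of this kind carries the repeat at its ends, yet a repeat at the ends of a deletion can also be there by the composition of the site. Such a deletion has no single position, because the lost bases can be drawn at either copy.

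Positions run 5′ to 3′ along the strand of the gene, with -1 the last base before the cut-site and 1 the first base after it. The target lies on scaffold 867, on the minus strand, and the sgRNA matches the plus strand at 8770 to 8789 of the annotated region as the study's feature file counts it. The cut falls between 8786 and 8787, inside the 3′ UTR that the Maker prediction places at 5712 to 8862. According to the paper, transcripts aligned at this gene did not match that prediction, and its manual model followed most of the aligned proteins. It designed guides on coding sequence as far as possible, so the 3′ UTR here is the prediction's call alone. The stretch from 8767 to 8796 is shown because all products that reached 10 reads lie within it, first with the complement of the sgRNA target in capitals and then with the bases lost in each of the 5 leading products and in the 1 product of 8 nt with a 3-nt repeat.
Target site, positions -10 to 20: accgcccTGTGGCCAGCTAGTCATATGtgg
4-nt deletion from 2: accgccctgtgGCCAgctagtcatatgtgg
16-nt deletion from -1: accgccctgTGGCCAGCTAGTCATAtgtgg
2-nt deletion from -3: accgcccTGtggccagctagtcatatgtgg
8-nt deletion from 4: accgccctgtggcCAGCTAGTcatatgtgg
11-nt deletion from -2: accgccctGTGGCCAGCTAgtcatatgtgg
8-nt deletion from -7: accGCCCTGTGgccagctagtcatatgtgg
Each gap is drawn at its leftmost placement, and the first letters of the capitals occur again right after them. That repeat is gc for the 4-nt deletion, tg for the 16-nt and the 2-nt deletions, ca and gt for the 8-nt deletion from 4 and the 11-nt deletion, and gcc for the 8-nt deletion from -7. The 2-nt deletion removes 1 unit of the tandem repeat tgtg that spans the cut-site.

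Libraries held 17475 to 58396 aligned reads, and a count of 0 allowed a share of up to 0.00514% to 0.0172%, taking 3 reads as the limit. Intervals and limits cover counting error only, since PCR reads without molecular identifiers are not independent molecules. In experiments 4 to 7 the tables were written in the opposite orientation and were turned. The positive control of experiment 8 stood apart, with 247 alleles listed against 382 to 868 in the other 15, and the negative control of experiment 15 had 2.86% of its reads modified in window 20 (the 20 columns around the cut-site) against 0.859% to 1.66% in the other negative controls. The results that either library bears on most are followed by the values without it.

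Reads with a short deletion and microhomology were present in all positive controls and nearly absent from the negative controls. Their share of the aligned reads had a lowest value of 0.390% in experiment 5, a median of 0.620% and a highest value of 1.28% in experiment 3. The negative controls ranged from 0 to 0.0187%. The groups did not overlap, and the positive control was higher in 16 of 16 experiments. The means were 0.648% ± 0.223 (SD, n = 16) and 0.00187% ± 0.00475 (SD, n = 16), a difference of 0.646 percentage points (two-sided permutation test with 100000 resamples, p = 1e-05, the smallest it can give). In the 4 experiments with reverse tables the difference was 0.586 points (exact permutation test, p = 0.0286), and it was 0.666 points in the 12 with forward tables (permutation test, p = 1e-05). For all single deletions of the same lengths, with any homology, the groups did not overlap either. These ran from 3.76% to 14.5% of aligned reads in the positive controls and from 0 to 0.377% in the negative controls. The separation was thus not particular to the class.

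**Figure D1:**
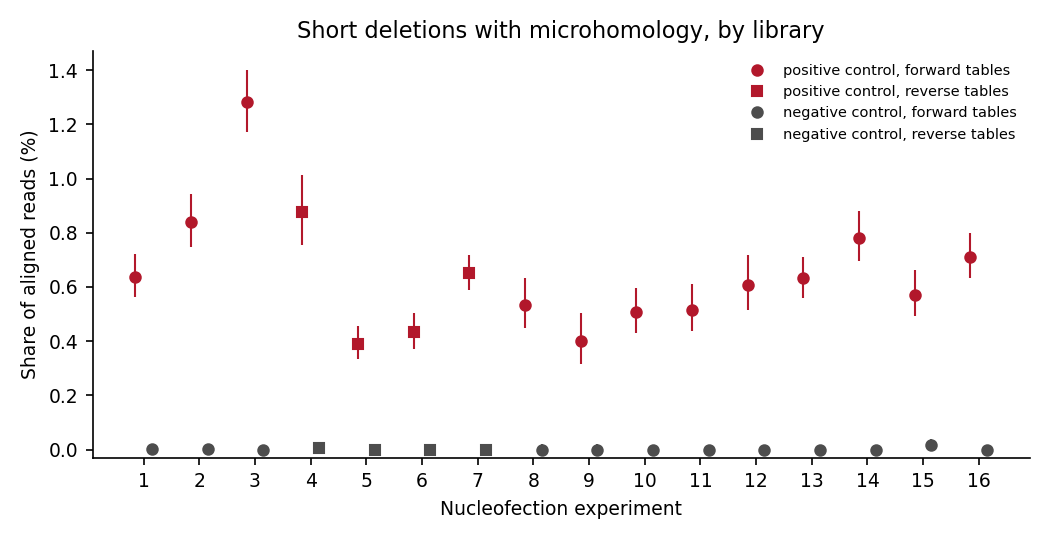
Share of aligned reads with a short deletion and microhomology (%) in the positive and negative control of each of the 16 nucleofection experiments; points are libraries, bars are 95% Wilson intervals, and squares mark experiments whose tables were turned. The positive controls sit between 0.390% and 1.28%, and the highest negative control, of experiment 15, is at 0.0187%.

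In the negative controls, 4 of 16 libraries held such alleles, with 9 reads in all among 513941. The pooled share was 0.00175% (95% Wilson interval 0.000921% to 0.00333%). Experiment 15 gave 6 of the 9 reads, from the 2-nt deletion from -3, the 4-nt deletion from 2, the 10-nt deletion from -4 and the 11-nt deletion from -2. Without its negative control the mean of that group was 0.000745% ± 0.00160 (SD, n = 15).

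Deletions with microhomology were a minor part of the short deletions. Of the 46243 reads with a single deletion of 2 to 16 nt in the positive controls, 32076 had no homology at the ends, 10655 had 1 nt, 3388 had 2 nt and 124 had 3 nt. Of the 287 possible products that overlap window 20, only 20 have at least 2 nt, so a small share by itself does not set the class apart. The share with at least 2 nt was 7.62% ± 2.02 (SD, n = 16) per library. It was lowest in experiment 8, at 5.07% (95% Wilson interval 4.27% to 6.01%), had a median of 7.33% and was highest in experiment 1, at 13.5% (12.0% to 15.1%). Experiment 1 was therefore the library richest in microhomology among its short deletions, though its share of all aligned reads, 0.638%, was near the median. Its high value went with few short deletions of any kind, 4.73% of aligned reads against a mean of 8.74% ± 2.59 (SD, n = 16). Experiment 5, with the fewest at 3.76%, was next highest in the class at 10.4%. Without experiment 8 the mean share with at least 2 nt was 7.79% ± 1.97 (SD, n = 15).

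The values at the edges of the rule are given without a test. Just outside the homology minimum, the 5-nt deletion from 1, which can slide by 1 nt, held 1.04% of reads on average and the 9-nt deletion from 1 held 0.562%. Both were above every product of the class. Just outside the length maximum, deletions of 17 nt with at least 2 nt of homology had 0 reads. At 18 nt, the loss of 1 copy of a 5-nt repeat, tgtgg, which stands at positions -3 to 2 and again at the far end of the printed stretch, held 1170 reads in 11 of the 12 experiments with forward tables, or 0.297% ± 0.189 (SD, n = 12). The 4 experiments with reverse tables list no deletion over 16 nt, so it cannot be compared there.

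The 5 leading products held 3134 of the 3512 reads, or 89.8% ± 7.19 of the reads of the class in a library (SD, n = 16). The 4-nt deletion from 2, which removes bases only to the right of the cut-site, was the most frequent product of the class in 12 libraries. The 16-nt deletion from -1 was the most frequent in the other 4, of experiments 2, 3, 9 and 10. Both copies of the repeat of the 4-nt deletion from 2 lie to the right of the cut-site. The same holds for the 8-nt deletion from 4 and the 4-nt deletion from 5. These products, with 1137, 361 and 67 reads, thus have no repeat copy on each side of the cut-site, and how they arose was not tested.

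The 4-nt deletion from 2 was found in 16 of 16 positive controls, with 1137 reads. Its share was lowest in experiment 9 at 0.0857%, had a median of 0.196% and was highest in experiment 8 at 0.341%. In experiment 8, however, only 1 of its 80 reads was the exact deletion, and 79 carried a substitution described below. The mean was 0.209% ± 0.0749 (SD, n = 16), against 2 reads in 1 negative control.

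The 16-nt deletion from -1 was found in 15 positive controls, with 652 reads and no read in a negative control. It ran from 0 in experiment 8, over a median of 0.111%, to 0.324% in experiment 3, with experiment 2 next at 0.277%. Of the 5 leading products it varied most relative to counting error, with a variance between libraries 18.8 times that of counting, against 5.59 to 8.60 times for the other 4. That ratio also rises with a product's read count. The SD was 0.0812 at a mean of 0.121% here, 0.0410 at 0.0696% for the 8-nt deletion from 4 and 0.0386 at 0.0631% for the 11-nt deletion. For the 4-nt deletion from 2 it was 0.0749 at 0.209%, and for the 2-nt deletion 0.0462 at 0.120%.

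The 2-nt deletion from -3, the loss of 1 repeat unit, was found in 16 libraries with 645 reads. Its share was 0.0529% at the lowest, in experiment 6, 0.105% at the median and 0.217% at the highest, in experiment 3. Within the class it was the product seen most widely in negative controls, with 4 reads in 3 libraries.

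The 8-nt deletion from 4 had 361 reads in 15 libraries and ran from 0 in experiment 8 to 0.152% in experiment 4, with a median of 0.0702%. The 11-nt deletion from -2 had 339 reads in 15 libraries and ran from 0 in experiment 8 to 0.158% in experiment 3, with a median of 0.0690%. Both were rare in experiment 5, at 0.0149% and 0.0174%.

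In the order of means, the 4-nt deletion from 2 was above the 16-nt deletion by 0.0879 points (enumerated two-sided sign-flip test over experiments, adjusted p = 0.0129 over 12 neighbouring pairs, higher in 12 of 16). The 16-nt and the 2-nt deletion, at 0.121% and 0.120%, differed by less than their spread (adjusted p = 1). The 2-nt deletion was above the 8-nt deletion from 4 by 0.0505 points (adjusted p = 0.00238, higher in 13 of 16). The 8-nt and 11-nt deletions, at 0.0696% and 0.0631%, did not differ beyond their spread (adjusted p = 1). Counting only reads without a further substitution, the leading 3 lay at 0.130%, 0.117% and 0.117%, and the first pair no longer differed. Without experiment 8 the 5 means were 0.200%, 0.129%, 0.115%, 0.0743% and 0.0673% (n = 15), in the same order, and each of these 4 neighbouring pairs fell on the same side of the threshold.

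**Figure D2:**
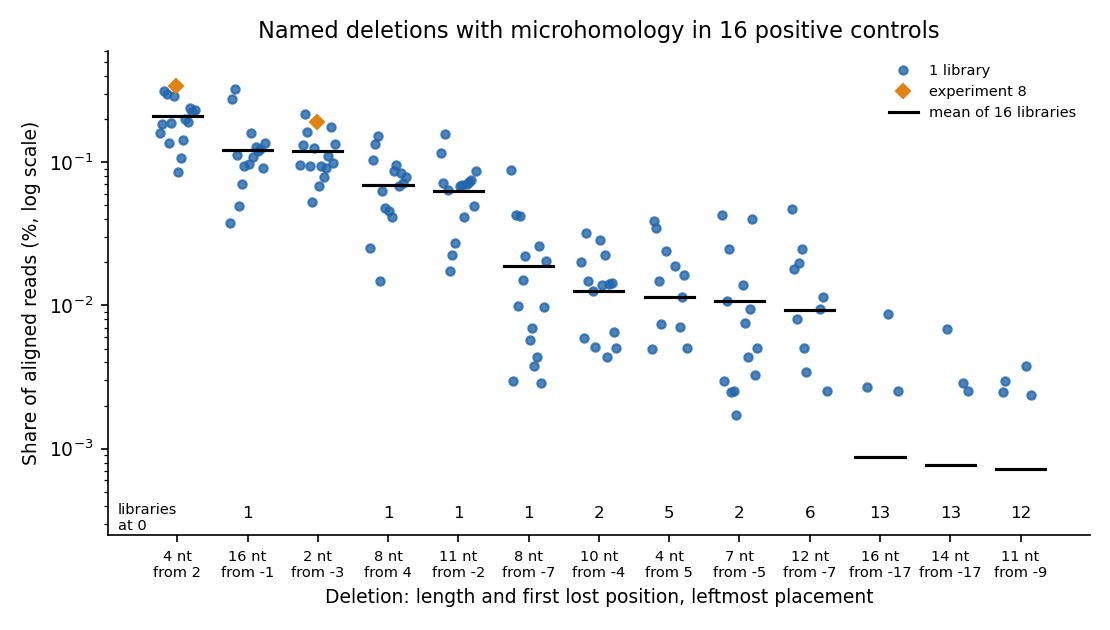
Share of aligned reads (%, log scale) of the 13 named products in the 16 positive controls, labelled by length and first lost position; points are libraries, diamonds mark experiment 8, bars are means over 16 libraries, and the row of numbers counts libraries without a read. The 5 leading products lie between means of 0.0631% and 0.209%, and experiment 8 has reads of only the 4-nt deletion from 2 and the 2-nt deletion from -3.

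Below a step from the 11-nt deletion to the next product (0.0441 points, adjusted p = 0.00238, higher in 14 of 16) lay 5 products at similar means. The 8-nt deletion from -7, with the repeat gcc, had 118 reads in 15 libraries and a mean of 0.0189% ± 0.0227 (SD, n = 16). The 10-nt deletion from -4 had a mean of 0.0125%, the 4-nt deletion from 5 of 0.0115%, the 7-nt deletion from -5 of 0.0107% and the 12-nt deletion from -7 of 0.00937%. None of the 4 neighbouring pairs among these 5 passed the test, with adjusted p from 0.723 to 1. All but the 4-nt deletion from 5 remove bases on both sides of the cut-site in every placement.

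The remaining 3 named products, the 16-nt and 14-nt deletions from -17 and the 11-nt deletion from -9, had 4, 6 and 4 reads in 3, 3 and 4 libraries. The step down to them from the 12-nt deletion was 0.00849 points (adjusted p = 0.0352, sign-flip test, higher in 9 of 16). A 14th product, 7 nt from 10, had 2 reads in 1 library. The reference allowed 6 further products of the class that overlap window 20, none of which can reach the cut-site, and these had 0 of 535772 reads, which allows a share of up to 0.00056% each. All 10 products of the class that can be placed to reach the cut-site were seen.

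Every product was then compared between positive and negative controls over the whole table of single deletions of 2 to 16 nt with at least 10 reads. Of the 14 products of the class, 10 reached that minimum, and 10 of 10 were higher in the positive controls after Benjamini-Hochberg adjustment (permutation test with 100000 resamples, adjusted p from 2.22e-05 to 0.000407). The background was 100% of the 89 products tested, so this count does not set the class apart. The minimum counted both groups together, and the negative controls held at most 4 reads of any product of the class. These products thus passed it through the positive controls, and the direction of their difference was nearly fixed in advance. The differences ran from 0.00937 points for the 12-nt deletion from -7 to 0.208 points for the 4-nt deletion from 2.

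The make-up of the class differed between libraries. Each experiment had 1 brood and 1 positive control, so brood, culture and library preparation cannot be told apart. The products that remove bases on both sides in every placement made up 31.4% of the reads of the class in experiment 1 and 17.8% in experiment 5, against a median of 7.31% and 0 in experiment 8. In experiment 1 the 8-nt deletion from -7 alone was 13.7% of the class, with 0.0875% of aligned reads, and the 16-nt deletion from -1 was 5.88%. In experiment 2 the order was turned, with 0.355% and 33.0%. The 7-nt deletion from -5 was highest in experiments 1 and 14, at 0.0425% and 0.0404%, with 17 and 14 of its 58 reads.

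**Figure D3:**
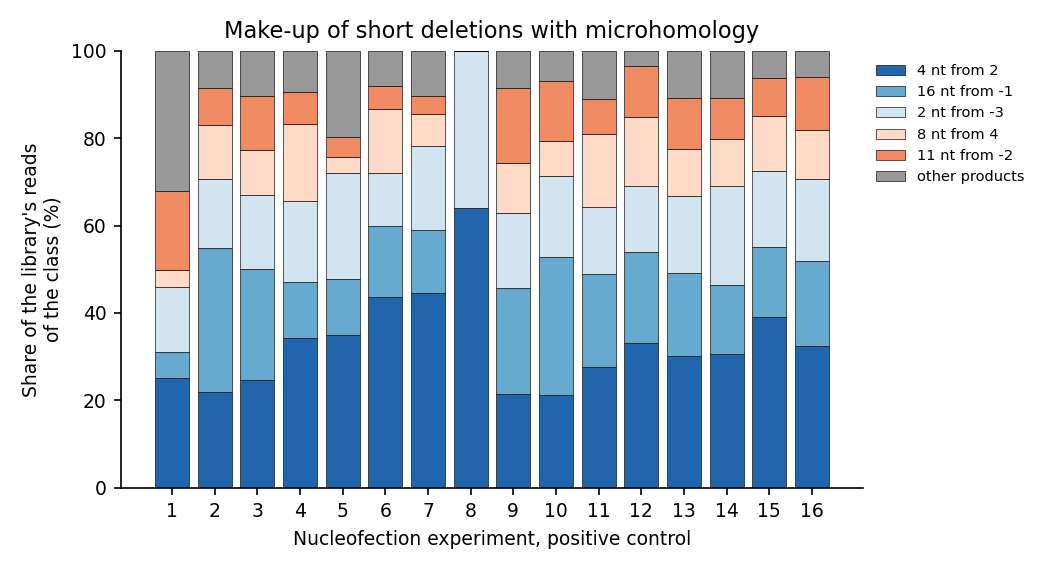
Make-up of the reads of the class (%) in the positive control of each experiment, as bars stacked from the 5 leading products and all others together. The other products take their largest parts in experiments 1 and 5. Experiment 8 consists of the 4-nt deletion from 2 (64.0%, all but 1 read with a further substitution) and the 2-nt deletion from -3 (36.0%).

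Experiment 8 had 125 reads of the class from only 2 products, 80 of the 4-nt deletion from 2 and 45 of the 2-nt deletion from -3, while the other libraries held 7 to 12 products. Of the 80, only 1 had no further substitution. At 23461 reads, a count of 0 allowed up to 0.0128%, below the mean of each of the other leading products. The same library listed no read of any single deletion of 6, 8 or 12 to 16 nt, with or without microhomology.

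Most reads of the class lost bases to the right of the cut-site, away from the PAM, but less often than other short deletions. A deletion that can be placed wholly to the right took 72.7% ± 7.96 of the reads of the class (SD, n = 16) and 97.6% ± 0.949 of the reads of short deletions with less homology. The class was lower in 16 of 16 experiments, by 24.9 points on average (enumerated sign-flip test, p = 3.05e-05, the smallest it can give). Deletions that can be placed wholly to the left took 19.0% ± 5.41 of the class, nearly all from the 2-nt deletion from -3, and deletions on both sides 8.31% ± 7.32.

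The part of the reads with microhomology differed between deletion lengths, and at some lengths the reference sequence leaves no room for it. At 16 nt, the deletion from -1 held 652 of 704 reads, or 92.6% (95% Wilson interval 90.4% to 94.3%), and was the first of 14 possible products. At 4 nt, the deletion from 2 held 1137 of 2104 reads, or 54.0% (51.9% to 56.2%). Of the 1137, 722 carried no further substitution. At 8 nt the deletion from 4 held 25.3% of 1429 reads, and at 11 nt the deletion from -2 held 20.5% of 1652 reads, each the second of its length. At 2 nt, the loss of 1 repeat unit was 3.46% of 18654 reads. At 5, 9, 13 and 15 nt no product of the class overlapping window 20 is possible, so its absence there is fixed by the sequence. At 3 and 6 nt 1 such product is possible, and neither had a read.

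**Figure D4:**
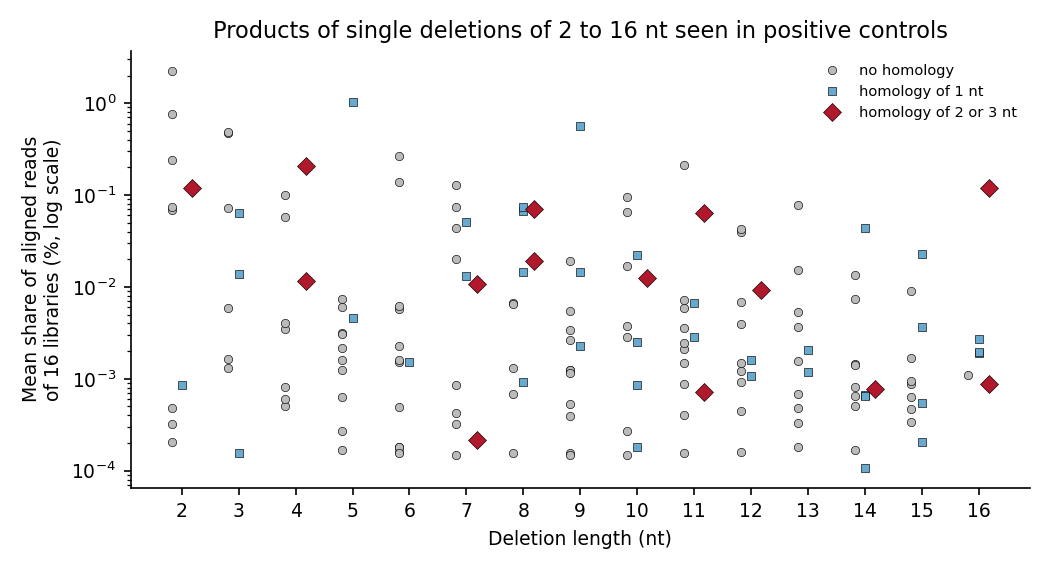
Mean share of aligned reads over the 16 positive controls (%, log scale) of each single-deletion product seen, by deletion length (nt); grey circles have no homology at the ends, blue squares 1 nt and red diamonds 2 or 3 nt. The product with microhomology stands first at 4 nt and 16 nt, and products with less homology stand first at 2, 5 and 9 nt.

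Whether products with microhomology were more frequent than others was asked over all possible products that can be placed to reach the cut-site, 10 with at least 2 nt and 103 with less. The mean share per product was 0.0358% with and 0.0347% without, a difference of 0.00113 points ± 0.0119 (SD, n = 16) that did not pass the test (enumerated sign-flip test, p = 0.71, higher in 9 of 16 experiments). The 103 comprise 78 with no homology, at a mean of 0.0225%, and 25 with 1 nt, at 0.0727%. Medians per product were 0.000614% and 0.00191% for these, against 0.0116% for 2 nt and 0.00984% for 3 nt. The medians were not tested. The answer depended on which products were set side by side. Among products that remove bases on both sides in every placement, 5 with microhomology averaged 0.0104% and 78 others 0.00133%, and those with microhomology were higher in 15 of 16 experiments (p = 6.1e-05). The exception was experiment 8, a tie, with no read of the 5 or of the 78. The same products of 1 site recur in each experiment, so these p-values do not cover the spread between products.

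Compared at the same length, the class was lower by 0.0726 points on average over the 8 lengths that hold both kinds (p = 3.05e-05, lower in 16 of 16 experiments). This rested on the length of 2 nt, where the loss of the repeat unit held 0.120% and the other product that reaches the cut-site 0.759%. Over the 7 lengths from 3 to 16 nt the class was higher by 0.00832 points (p = 0.00534, higher in 15 of 16), in a comparison chosen after the data were seen.

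By length, with 8 tests adjusted together, products with microhomology were higher at 11 nt (mean of 0.0319% against 0.00112%) and at 16 nt (0.0608% against 0.000728%), each in 15 of 16 experiments with an adjusted p of 0.000122 by the enumerated sign-flip test. They were lower at 2 nt, at 7 nt (0.0107% against 0.0462%, adjusted p = 0.000537) and at 14 nt (0.000767% against 0.00476%, adjusted p = 0.000122). At 8, 10 and 12 nt the difference did not pass the test, with adjusted p from 0.269 to 0.989. At 11 and 16 nt the only product compared that can be placed wholly to the right of the cut-site belongs to the class. At 2, 7 and 14 nt the only such product has less homology. Side and homology thus cannot be told apart in these comparisons, or in the averages over lengths above. Products that reach the cut-site leave out the 4-nt deletions from 2 and from 5 and the 8-nt deletion from 4. They also leave out frequent products with less homology, among them the 2-nt deletion from 2, at 2.26%, and the 11-nt deletion from 2, at 0.212%. In a comparison chosen after the data were seen, all possible products overlapping window 20 were set side by side, with 11 tests adjusted together. Products with microhomology were then higher at 4 nt (0.0734% against 0.0140%, adjusted p = 0.000112 by the enumerated sign-flip test, 16 of 16 experiments). At 8 nt they were higher as well (0.0295% against 0.0132%, adjusted p = 0.000192, 14 of 16), whereas at 10 nt they were lower (0.00626% against 0.0110%, adjusted p = 0.00587, higher in 3 of 16). At 12 nt the difference again did not pass (adjusted p = 0.211). The class was also higher at 11 nt (0.0319% against 0.0123%) and at 16 nt (0.0405% against 0.000697%). It was lower at 2 nt (0.120% against 0.213%), at 7 nt and 14 nt, and at 3 nt and 6 nt, where it had no read. For these lengths the sign-flip test gave adjusted p from 0.000112 to 0.00112.

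As a share of short-deletion reads, the class showed no relation to editing that passed a test. Against the share of reads modified in window 20, between 22.4% and 55.8%, Pearson r was -0.297 (permutation p = 0.274, adjusted p = 0.365 over 4 tests) and Spearman rho 0.0147 (p = 0.961, adjusted p = 0.961). As a share of all reads with an insertion or deletion, 1.64% ± 0.483 (SD, n = 16), the permutation test gave p = 0.184 for an r of -0.350 and p = 0.141 for a rho of -0.385, both 0.365 when adjusted. Leaving out experiments 5 and 10, whose editing was farthest from the median, r was -0.231 (permutation p = 0.467) for the first measure and -0.324 (p = 0.264) for the second. In the 12 experiments with forward tables r was -0.222 (permutation p = 0.541) and -0.438 (p = 0.154), and no value is given for the 4 with reverse tables, since correlations were limited to at least 6 libraries. Without experiment 8, r was -0.238 (permutation p = 0.419) and -0.298 (p = 0.283).

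As a share of all aligned reads, the class has reads in common with the modified share, which counts them too. In a relation added after the data were seen, r was 0.493 (permutation p = 0.0478) and rho 0.609 (permutation p = 0.0151) over the 16 positive controls, and neither passed after adjustment over the 6 tests of the 3 measures (adjusted p = 0.143 and 0.0906). With experiments 5 and 10 left out, r fell to 0.369 (permutation p = 0.197) and rho to 0.446 (permutation p = 0.112), in the same direction with 14 libraries. Pearson r was 0.292 among the 12 experiments with forward tables (permutation p = 0.387) and 0.546 without experiment 8 (permutation p = 0.028, adjusted p = 0.084).

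**Figure D5:**
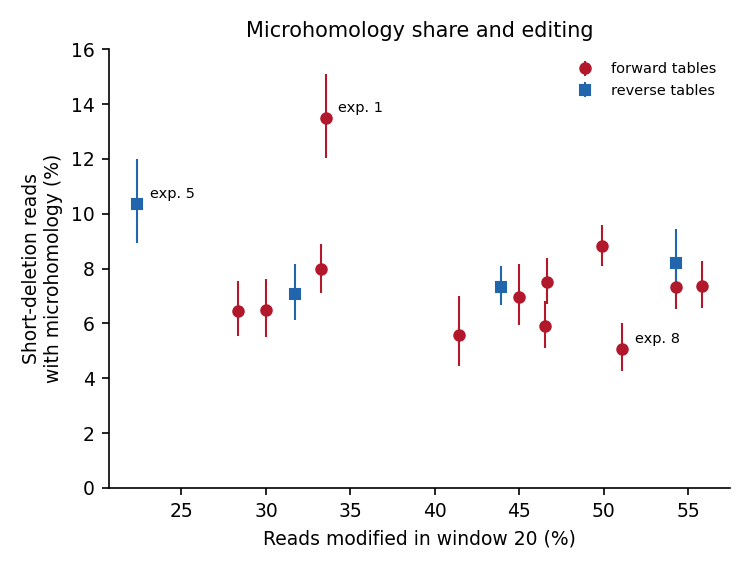
Share of short-deletion reads with microhomology (%) against the share of reads modified in window 20 (%), 1 point per positive control with its 95% Wilson interval; squares are experiments with reverse tables. Experiment 1 is highest at 13.5%, experiment 8 lowest at 5.07%, and the rest lie between 5.58% and 10.4%.

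Because the gap can slide, the same product was written at different places in tables of different orientation. Of the 2625 reads of the class in forward tables, 80.0% had the gap at its rightmost placement and 0% at its leftmost. Of the 887 reads in reverse tables, once turned, 80.9% had it at the leftmost placement and 0.451% at the rightmost. The 2-nt deletion from -3, for example, was drawn at -1 and 1 in forward tables and at -2 and -1 in reverse tables. Counting by product removes this difference in placement, but which reads the rule takes still depended on how they were written. It left out 323 reads with the same sequences as the 3512 it took, 312 of them in forward tables. Counted by sequence, positive and negative controls differed by 0.711 points. The share of aligned reads in the class did not differ between orientations beyond its spread (0.668% and 0.587%, exact permutation test, p = 0.561), with only 4 against 12 libraries.

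What the narrow window of 2 nt counted went with the product a read carried. Of the reads of the class, 1563 of 3512 were scored as modified in window 20 and not in window 2, or 45.0% ± 10.4 per library (SD, n = 16). They came from products to the right of the cut-site. The 4-nt deletions from 2 and from 5 had 0% of their 1137 and 67 reads modified in window 2, and the 8-nt deletion from 4 had 1.11% of 361, whereas the 10 products that can reach the cut-site had 100%. For short deletions with less homology the share missed by window 2 was 55.6% ± 3.91 (SD, n = 16). The class was missed less often by 10.6 points on average (enumerated sign-flip test, p = 0.000977), in 15 of 16 experiments, the exception being experiment 8, where the 4-nt deletion was most of the class.

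Of the reads of the class, 2929 of 3512 (83.4%) carried no further substitution in the 40 columns, against 80.5% of the reads of other short deletions. The 583 others were concentrated in the 4-nt deletion from 2, with 415 reads, of which 1 sequence made up 242 and occurred in 16 of 16 positive controls and 0 negative controls. It is shown beside the exact product, over positions -10 to 20, because it was the most frequent substituted sequence of the class, with the base that differs in capitals.
Exact 4-nt deletion, 722 reads: accgccctgtggctagtcatatgtgg
Substituted form, 242 reads: accgccctgtgCctagtcatatgtgg
The substituted form equals the reference without 1 nt at position 1 and 3 nt from position 4, so it can be written as 2 smaller deletions with no substitution. Over the class, 31 of the 99 substituted sequences, with 376 of the 583 reads, can be written that way. In experiment 8, the exact form had 1 read and the substituted form 79 of the 80 reads of this product. The 2 ways of writing such a read cannot be told apart from the tables, and the class counts it as the tables give it.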

How the data were processed

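The positive and negative controls of 16 experiments, 32 libraries, were sequenced as amplicons of the Mr-cofilin site, and the authors ran CRISPResso2 with windows of 2 and 20 nt. Version and parameters are not given in the sources used here. Per allele, the 64 deposited tables give the alignment in 40 columns, the unnormalized read count and the percent of aligned reads as the authors calculated it; shares were recomputed from the counts. The deposited columns of deleted, inserted and mutated bases were used as given.

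Experiments 4 to 7, written on the other strand, were reversed to match the gene. The rule took n_inserted of 0, n_deleted of 2 to 16 and 1 gap run inside the columns of the same length; 1404 reads with over 1 run and 7 with a gap at the edge were left out. Homology is the number of bases the gap can slide. Alleles with 1 read were kept, 123 of the 310. Named are all products of the rule that can reach the cut-site, found from the reference, and any other with a higher mean than the lowest of these. A further recurrent read sequence is not reported here. Members and lists were chosen with earlier results of these data known.

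Libraries were the replicates. Two-sided permutation tests (100000 resamples, seed 1; exact below 10 libraries a group) and sign-flip tests over all 65536 patterns were used, with Benjamini-Hochberg adjustment and a threshold of 0.05, and tested on simulated data. Experiment numbers pair the libraries through the single female, and deviations of the 2 controls were not correlated (n = 16, r = 0.0213, permutation p = 0.929). No 2 tables were identical. Negative controls 2 and 7, and 11 and 12, differed by less than the sampling noise. They were kept as separate samples, since their reads are nearly all unmodified, and counted once as an alternative. Python 3.11.15, NumPy 2.4.6, pandas 2.3.3, SciPy 1.17.1 and Matplotlib 3.10.9 were used.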

Additional observations from a re-analysis of the deposited data

How the results depend on the processing

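The difference between positive and negative controls kept its direction and passed the test under all alternatives run. With the experiment as a replicate block it was 0.646 points (enumerated sign-flip test, p = 3.05e-05), and leaving out each experiment gave 0.604 to 0.663. It was 0.0194 points for homology of at least 3 nt and 0.356 for deletions that can reach the cut-site. The replicate block called 85 of 89 products and 10 of 10 of the class. A minimum of 100 reads called 37 of 37, and reads without a further substitution 59 of 63, since fewer products were tested. The products of the class reached each minimum through the positive controls, so their direction was nearly fixed in advance. The share of short-deletion reads in the class moved from 7.62% to 30.8% with homology of at least 1 nt, to 0.308% with at least 3 nt and to 10.4% for deletions of 3 to 16 nt, by construction, and lay between 7.23% and 7.79% without each experiment. The difference per possible product (0.00113 points) turned to -0.00114 for 3 to 16 nt (p = 0.706), to -0.0254 for at least 3 nt against less (p = 0.000458, 2 products with 3 nt) and to -0.0726 at the same length (p = 3.05e-05). It was 0.00912 for products on both sides in every placement (p = 6.1e-05) and 0.00832 at the same length from 3 to 16 nt (p = 0.00534). Leaving out each experiment gave -0.000567 to 0.00309, the lowest without experiment 1, and no p below 0.231; the cause was not tested. The share missed by window 2 ranged from 43.7% to 46.1% without each experiment. Alternatives by read sequence, by products in the scored columns, by counting near-identical libraries once, by the most abundant products, by the same length from 3 to 16 nt, and those of the product order and of single products without experiments 8 or 15 or without substitutions were chosen after seeing the data. Products with under 100 reads have shares near the limit of 3 reads in single libraries.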
